A study of Homo sapiens with 6 samples.

Results

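Fibronectin and 9 integrin subunits were followed across the 6 arrays of the series. Members were the probe sets whose platform gene symbol is FN1, ITGA4, ITGA5, ITGA8, ITGA9, ITGAV, ITGB1, ITGB3, ITGB5 or ITGB8. They made up 10 of the 22349 genes with a probe set of their own. The arrays were 1-colour Affymetrix arrays hybridised with biotin-labelled cDNA from total RNA of U87 MG, an established human glioblastoma line. A group of 3 arrays came from U87 MG cells stably transfected with a pCDNA3.1D/V5-His-TOPO plasmid carrying GUCY1B3, which encodes a subunit of the nitric oxide receptor guanylate cyclase. The other 3 arrays came from U87 MG cells labelled as control. All cells grew in DMEM with serum and received no treatment. The labels name no cells carrying an empty plasmid, so GUCY1B3 and the making of a stable line cannot be told apart. They do not say whether the stable cells were 1 clone or a mixture, or whether arrays came from separate cultures, so p-values cover only the spread among these 6 arrays, and that spread may be technical.

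Fibronectin is a secreted glycoprotein that cells assemble into matrix fibrils. Integrins are receptors built from an alpha chain and a beta chain, and several of them recognise an arginine-glycine-aspartate (RGD) loop in fibronectin. ITGA5 and ITGA8 pair with ITGB1 to bind that loop, and among the members ITGAV pairs with ITGB1, ITGB3, ITGB5 or ITGB8. ITGA4 and ITGA9 also pair with ITGB1 but are not RGD receptors. ITGA4 binds a leucine-aspartate-valine site in an alternatively spliced part of fibronectin and the endothelial protein VCAM1, and ITGA9 binds tenascin and the extra domain A of fibronectin. In glioblastoma, ITGAV with ITGB3 or ITGB5 is known as a receptor of both tumour cells and vessels.

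The targeted gene was higher on every overexpression array. GUCY1B3, listed under its current symbol GUCY1B1, stood at 8.10, 8.18 and 8.40 in the overexpression group, against 7.45, 7.70 and 7.49 in the control group (log2 RMA values), a difference of 0.68 (limma, adjusted p = 0.00433, and 0.0783 in the ordinary equal-variance test). The 9 glial and glioma markers differed widely in signal. The brightest were VIM at 12.15 ± 0.03 in the overexpression group against 12.09 ± 0.08 in controls, and CD44 at 10.54 ± 0.10 in the overexpression group against 10.47 ± 0.12 in controls (SD, n = 3 each). GFAP, the astrocyte filament protein, was dim at 5.80 ± 0.08 in the overexpression group against 5.70 ± 0.09 in controls. S100B (5.49 against 5.37) and SOX2 (5.30 against 5.32) were dimmer still, and AQP4 (4.25 against 4.27) did not pass the filter used below. Of the 8 that passed that filter and were tested, NES and SLC1A3 rose, by 0.53 and 0.46 (limma, adjusted p = 0.00125 and 0.0280). Of all tested genes 6.39% were higher. Of 18 markers of leukocytes, endothelium, epithelium and neurons 11 passed the filter on dim features and 0 passed the threshold of limma or of the ordinary equal-variance test. At an unadjusted p under 0.05, 1 of the 11, KDR, was higher, against 3952 of the 15798 tested genes in either direction. Differences of the 18 markers ran from -0.06 to 0.19. By list, 3 of 5 leukocyte, 4 of 5 endothelial, 1 of 4 epithelial and 3 of 4 neuronal markers passed the filter. Their means reached 5.37 in the overexpression group against 5.31 in controls for leukocytes (ITGAM), 6.48 against 6.38 for endothelium (CLDN5), 5.01 in both groups for epithelium (CDH1) and 6.60 against 6.56 for neurons (SNAP25). PTPRC, PECAM1 and EPCAM, defining markers of the first 3 of these cell types, did not pass. The part of other cells in the results was not tested. Control array 3 stood apart from the other controls, with correlations of 0.989 and 0.987 against 0.995 between control arrays 1 and 2. Its correlations with the overexpression arrays, 0.987 to 0.989, were as high as with its own group, while those of control arrays 1 and 2 with the overexpression arrays were 0.982 to 0.986. Results of the members that rest on control array 3 are given with and without it. For the lists of other genes only the counts are given without it.

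Of the 10 members, 8 passed the filter on dim probe sets, which asked for a value above the median of all features on at least 3 arrays. Among these 8, ITGA4 rose, ITGAV fell, and the other 6 did not pass the test (limma, adjusted p under 0.05 over 15798 tested genes). Of all tested genes 6.39% were higher and 4.53% were lower, 10.9% in all. With each array centred on its median 725 genes were higher and 867 lower, against 1009 and 716 as deposited. With cyclic loess 866 were higher and 834 lower, and with the median of the 50 nearest tested genes on the chromosome removed (the regional median) 596 were higher and 584 lower. The median difference was -0.01 over the 8 members and 0.02 over all tested genes, and the median size of the difference was 0.18 over the members and 0.08 over all tested genes. Groups did not overlap for 4 of the 8 members, against 29.3% of all tested genes. The members were chosen with earlier results of these data known, so these comparisons with all genes describe the members and do not test them.

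**Figure D1:**
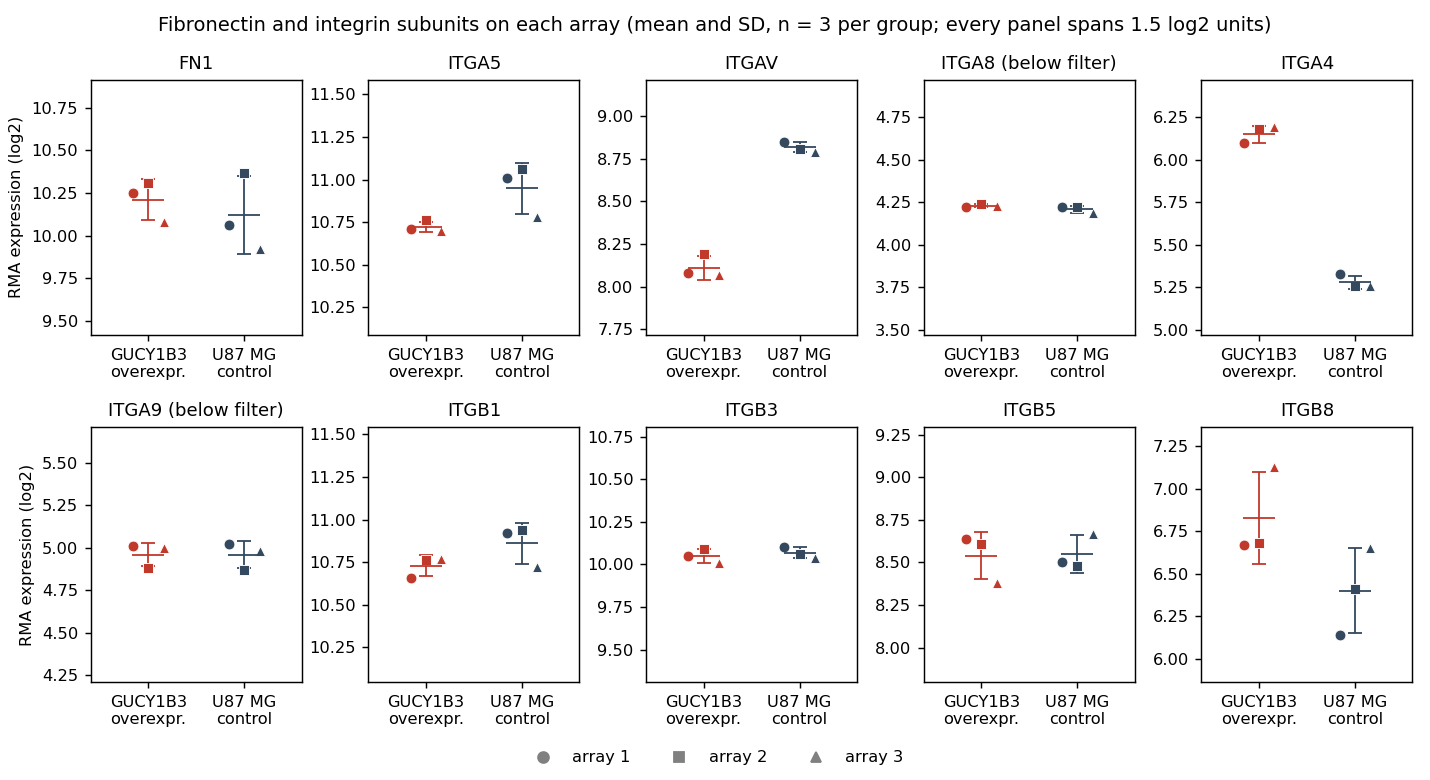
Log2 RMA expression (vertical axis) of the 10 genes on the 3 overexpression arrays (red, left) and the 3 control arrays (dark, right), with the group mean and SD and 1 symbol shape for each array number. ITGA4 sits higher and ITGAV lower on all 3 overexpression arrays, while ITGB3 lies between 10.01 and 10.10 on all 6 arrays.

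ITGA4, the alpha subunit of the leucine-aspartate-valine receptor, was the member that rose. It stood at 6.10, 6.18 and 6.19 in the overexpression group, against 5.33, 5.26 and 5.26 in the control group. All 3 overexpression arrays lay above all 3 control arrays, and the gap between the groups was far wider than the spread within either. Means were 6.15 ± 0.05 with overexpression and 5.28 ± 0.04 in controls (SD, n = 3 each). ITGA4 thus differed by 0.87 on the log2 scale, 1.83-fold (SE 0.05, 95% interval 0.75 to 1.0, limma adjusted p = 0.000186). Of all tested genes, 0.399% had a difference of at least this size in either direction. The control values lay little above the medians of all features, which were 4.97 to 5.03 across arrays, so the fold depends on the array's background. In RNA from bulk cells, more RNA per cell and more cells with the transcript cannot be told apart.

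ITGAV, the alpha subunit shared by the vitronectin-type RGD receptors, was the member that fell. It stood at 8.08, 8.19 and 8.07 in the overexpression group, against 8.85, 8.81 and 8.79 in the control group. The groups did not overlap here either, and the control arrays lay within a span narrower than the difference. Means were 8.11 ± 0.07 with overexpression and 8.82 ± 0.03 in controls (SD, n = 3 each). ITGAV thus differed by -0.70, 1.63-fold lower (SE 0.06, 95% interval -0.83 to -0.57, limma adjusted p = 0.000422). Of all tested genes, 0.836% had a difference of at least this size. Both calls held under all 16 alternatives run, with differences of 0.84 to 0.96 for ITGA4 and -0.74 to -0.63 for ITGAV. Their highest adjusted p, 0.0216 and 0.0251, came from the ordinary equal-variance test.

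ITGA5, the alpha subunit of the classical fibronectin receptor, stood at 10.71, 10.76 and 10.70 in the overexpression group, against 11.01, 11.06 and 10.78 in the control group. All overexpression values lay below all control values, by a small gap to control array 3. The difference was -0.23 (95% interval -0.41 to -0.05) and did not pass the test (limma, adjusted p = 0.102). Without control array 3 it was -0.32 with an adjusted p of 0.00339.

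ITGA8, an alpha subunit best known from kidney development, and ITGA9 did not pass the filter and were not tested. ITGA8 lay between 4.22 and 4.24 on the overexpression arrays and between 4.19 and 4.22 on the control arrays. ITGA9 averaged 4.96 ± 0.07 with overexpression and 4.96 ± 0.08 in controls (SD, n = 3 each). Both lay near or below the median of all features in both groups, where a difference in RNA may not be visible. Without the filter the adjusted p was 0.902 for ITGA8 and 0.980 for ITGA9.

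Among the beta subunits, ITGB8 had the largest difference without passing the test. ITGB8, which with ITGAV binds latent TGF-beta, stood at 6.67, 6.68 and 7.13 in the overexpression group, against 6.14, 6.41 and 6.65 in the control group. The groups were separated by a margin narrower than the spread inside each, with overexpression array 3 and control array 3 the highest of their groups. The difference was 0.43 (95% interval 0.07 to 0.78, limma adjusted p = 0.124), and without control array 3 it was 0.55 (adjusted p = 0.0174). The 50 nearest tested genes on chromosome 7 had a median difference of 0.24, and with that regional median removed ITGB8 differed by 0.19 (adjusted p = 0.513).

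ITGB1, the common partner of ITGA4, ITGA5, ITGA8 and ITGA9, stood at 10.66, 10.76 and 10.77 in the overexpression group, against 10.92, 10.94 and 10.72 in the control group. Control array 3 lay among the overexpression arrays, so the groups overlapped. The difference was -0.13 (95% interval -0.29 to 0.03, adjusted p = 0.317), and without control array 3 it was -0.20 (adjusted p = 0.0380). The platform lists 2 further ITGB1 probe sets, both with far lower values than the one used, and their differences had the opposite sign. They averaged 5.96 ± 0.03 and 5.29 ± 0.11 on the overexpression arrays against 5.87 ± 0.13 and 5.07 ± 0.11 on the control arrays (SD, n = 3 each), with differences of 0.09 and 0.22 that did not pass the test over all named probe sets (adjusted p = 0.561 and 0.156). The probe sets of ITGB1 thus disagreed in sign.

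ITGB3 and ITGB5, the other partners of ITGAV among the members, showed no detectable difference. ITGB3 stood at 10.05, 10.09 and 10.01 in the overexpression group, against 10.10, 10.06 and 10.04 in the control group, a difference of -0.02 whose 95% interval ran from -0.13 to 0.10 (adjusted p = 0.883). That interval leaves out a change as large as the one seen for ITGAV. ITGB5 stood at 8.64, 8.61 and 8.38 in the overexpression group, against 8.50, 8.48 and 8.67 in the control group, a difference of -0.01 (95% interval -0.21 to 0.19, adjusted p = 0.962). Its sign turned without overexpression array 3 (0.07) or control array 3 (0.05).

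FN1, the ligand, stood at 10.25, 10.31 and 10.08 in the overexpression group, against 10.06, 10.37 and 9.92 in the control group. Control array 2 was the highest of all and control array 3 the lowest, so the groups overlapped. The difference was 0.10 (95% interval -0.16 to 0.35, adjusted p = 0.684) and 0.00 without control array 3. The probe set summarises the whole gene, so the spliced forms of fibronectin that differ in binding ITGA4 and ITGA9 were not measured apart.

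**Figure D2:**
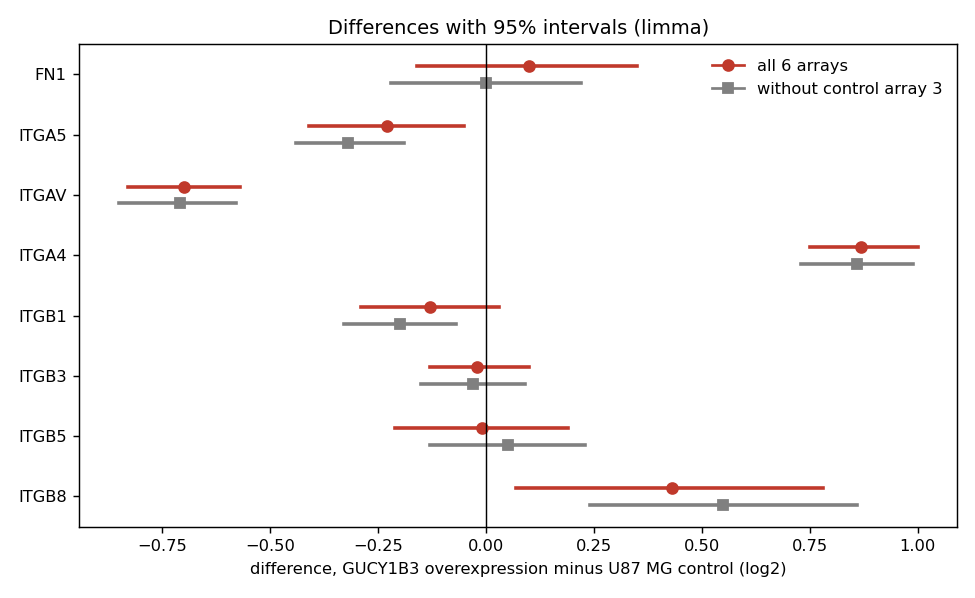
Difference on the log2 scale (horizontal axis, overexpression minus control) with 95% limma intervals for the 8 tested members, from all 6 arrays (red circles) and without control array 3 (grey squares). The intervals are not adjusted for the number of genes: those of ITGA4, ITGAV, ITGA5 and ITGB8 lie clear of 0 in both, though ITGA5 and ITGB8 did not pass the adjusted test with all 6 arrays, and that of ITGB1 lies clear of 0 only without control array 3.

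Leaving out control array 3 gave 2 members that rose and 3 that fell, ITGB8 joining ITGA4 and ITGA5 and ITGB1 joining ITGAV. Over all tested genes 13.0% were then higher and 9.97% lower, 22.9% in all.

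ITGA4, ITGAV and FN1 all lie on chromosome 2, and ITGA4 and ITGAV are separated by only 8 tested genes. All 8 of these had differences below 0, from -0.31 for DNAJC10 to -0.08 for NUP35, and 2 of them, DNAJC10 and ZC3H15, fell (adjusted p = 0.0143 and 0.0298). The genes at the ends of this stretch therefore moved in opposite directions around neighbours with a median difference of -0.18. Over 25 tested genes on each outer side and the 8 between, 1 of 58 was higher and 7 were lower, with a median of -0.08. The shares over all tested genes were 6.39% higher and 4.53% lower. With the median of the 50 nearest genes removed, ITGA4 differed by 0.96 (adjusted p = 0.000268) and ITGAV by -0.63 (adjusted p = 0.00142).

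**Figure D3:**
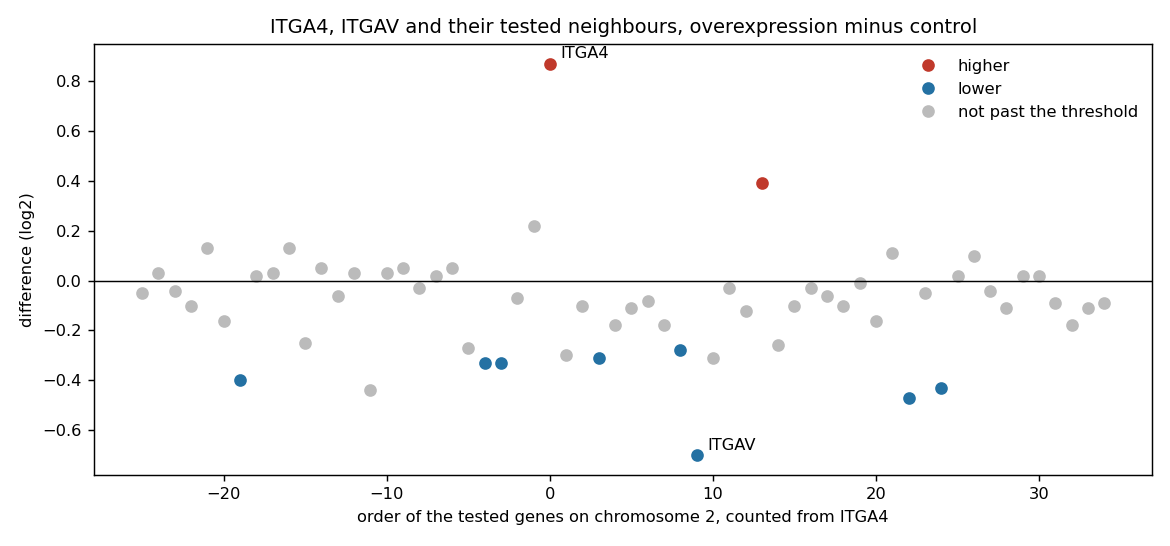
Difference on the log2 scale (vertical axis, overexpression minus control) of the tested genes around ITGA4 and ITGAV, in their order on chromosome 2 counted from ITGA4 (horizontal axis). Red marks genes that were higher, blue genes that were lower and grey genes that did not pass the test. ITGA4 stands above and ITGAV below all others shown.

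The promoters of the ligand, of its classical receptor subunit and of both changed subunits are shown because the genes share a pathway and, for ITGA4 and ITGAV, moved in opposite directions. They are RefSeq sequences of GRCh38.p14 from 250 bases before to 50 after the start site, on the gene's strand, with capitals marking matches on either strand to the letters TGACGTCA of a CRE, the letters TGANTCA of an AP-1 site, the letters GGGCGG of a GC box, the letters TATAA of the TATA motif and the CCAAT box, spelled by its name.
FN1 (chr2:215436019-215436318, minus strand): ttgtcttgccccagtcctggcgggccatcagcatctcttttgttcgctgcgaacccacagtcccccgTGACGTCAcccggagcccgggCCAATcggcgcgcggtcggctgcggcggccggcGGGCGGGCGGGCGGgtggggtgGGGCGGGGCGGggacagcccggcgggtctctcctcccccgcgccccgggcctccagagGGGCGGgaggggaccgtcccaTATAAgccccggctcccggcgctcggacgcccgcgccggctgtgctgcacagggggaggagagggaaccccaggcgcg
ITGA5 (chr12:54419217-54419516, minus strand): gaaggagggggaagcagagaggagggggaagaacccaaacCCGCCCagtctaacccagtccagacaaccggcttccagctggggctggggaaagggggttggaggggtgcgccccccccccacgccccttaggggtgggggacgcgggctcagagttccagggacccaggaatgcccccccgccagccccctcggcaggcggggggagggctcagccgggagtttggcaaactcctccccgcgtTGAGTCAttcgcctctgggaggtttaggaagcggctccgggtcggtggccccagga
ITGAV (chr2:186589806-186590105, plus strand): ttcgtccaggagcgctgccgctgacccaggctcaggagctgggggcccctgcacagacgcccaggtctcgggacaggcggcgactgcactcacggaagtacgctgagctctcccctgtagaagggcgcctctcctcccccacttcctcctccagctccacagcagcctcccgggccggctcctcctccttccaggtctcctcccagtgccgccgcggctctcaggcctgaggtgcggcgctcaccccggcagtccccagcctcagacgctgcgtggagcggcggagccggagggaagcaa
ITGA4 (chr2:181457136-181457435, plus strand): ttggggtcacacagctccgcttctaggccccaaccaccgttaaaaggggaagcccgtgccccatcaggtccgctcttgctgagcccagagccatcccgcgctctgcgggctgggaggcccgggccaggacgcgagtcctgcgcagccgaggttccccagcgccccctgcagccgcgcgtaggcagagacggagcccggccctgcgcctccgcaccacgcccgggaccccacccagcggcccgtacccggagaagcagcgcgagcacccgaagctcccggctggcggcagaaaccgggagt
The FN1 window held a CRE, the motif known to bind CREB family factors, at position -183 from the start site, a CCAAT box at -162, a TATA motif at -28 and 6 GC boxes, some of which overlap. Of all 35116 promoter windows of this length 1.85% held a CRE, 45.0% a GC box, 34.6% a CCAAT box and 20.4% a TATA motif. The ITGA5 window held an AP-1 site at -6, a motif found in 7.71% of windows, and a GC box at -210. The ITGAV and ITGA4 windows held no match to these letters. Among the 8 members with a window in the table, 1 held the CRE. Where the table gives several windows for a gene, 2 each for ITGAV and ITGB1 and 3 for ITGB5, only the window nearest the gene's annotated start was searched. Matches are described here as letters and not as sites in use.

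By Pearson correlation over the 6 arrays, the tested genes most like ITGA4 were SLC37A2 and FKBP9P1, each with r = 0.999. Those most like ITGAV were AP3D1 (r = 0.999) and POLR2C (r = 0.997). These values are dominated by the step between the groups, and the genes share it. With group means removed, the closest were ZCCHC3 (r = 0.996) and B3GNT2 (r = 0.994) for ITGA4 and ULK3 (r = 0.991) and RPS23 (r = 0.986) for ITGAV. The number of arrays, 6, leaves high correlations common.

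Among 16 tested integrin subunits outside the members, 0 rose and 1 fell, 6.25% against 10.9% of all genes. Without control array 3 the share of all genes called was 22.9%. Counts without that array, in this and the following lists, are to be read against that share. The lists were chosen with earlier results of these data known, so their shares describe the lists and do not test them. The gene that fell was ITGA6, a laminin receptor subunit also on chromosome 2. It stood at 5.37, 5.46 and 5.64 in the overexpression group, against 7.09, 7.34 and 7.53 in the control group. It was 3.55-fold lower (limma, adjusted p = 0.000187). The overexpression values lay little above the medians of all features, so this fold depends on the array's background. The remaining 15 had differences no larger than 0.14, and the median of the 16 was 0.02. At an unadjusted p under 0.05, 1 was higher and 1 lower, against 3952 of all 15798 tested genes in either direction. The ordinary equal-variance test called 0 higher and 1 lower, against 246 higher and 170 lower over all tested genes. Leaving out control array 3 gave 0 that rose and 2 that fell. ITGB6, also outside the members, did not pass the filter and was not tested.

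Of 18 tested genes of integrin activation and traffic, whose products switch integrins on or carry them through the cell, 3 rose and 3 fell, 33.3% against 10.9% of all genes, with a median difference of 0.03. APBB1IP, the RAP1 effector that brings talin to integrins, stood at 5.61, 5.61 and 5.54 in the overexpression group, against 6.66, 6.81 and 6.61 in the control group. It was 2.16-fold lower (adjusted p = 0.000167), with no overlap between groups. As for ITGA6, the overexpression values lay little above the medians of all features, so the fold depends on the array's background. RAB11A, a GTPase of the recycling endosome, fell by 0.35 (adjusted p = 0.00768) and the tetraspanin CD81 by a difference of -0.33 (adjusted p = 0.0339). ARF6, a GTPase of membrane recycling, rose by 0.40 (adjusted p = 0.00469) and the tetraspanin CD9 by 0.31 (adjusted p = 0.0214). RAB4A, a GTPase of early recycling, rose by 0.26 (adjusted p = 0.0305), a call lost with each of the 3 other scalings (0.0594 to 0.0733), and is named outside the rule. With the regional median removed ARF6 did not pass (adjusted p = 0.105). Leaving out any array but control array 3 ended the calls of CD81 (adjusted p = 0.0917 to 0.120), CD9 (0.0533 to 0.0790) and RAB4A (0.0771 to 0.112), while leaving out control array 3 gave 6 that rose and 5 that fell. APBB1IP and RAB11A passed in all 16 alternatives.

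Of 22 tested adhesion kinases and adaptors 3 rose and 2 fell, 22.7% against 10.9% of all genes, with a median of -0.02. TGFB1I1, the paxillin relative also called HIC-5, stood at 9.97, 9.73 and 9.88 in the overexpression group, against 9.34, 9.32 and 8.77 in the control group, a rise of 1.64-fold (adjusted p = 0.0189). The GTPase RAC1 rose by 0.34 (adjusted p = 0.00523) and the adaptor GIT2 by 0.23 (adjusted p = 0.0482). With the regional median removed RAC1, on chromosome 7, did not pass (adjusted p = 0.0731). GIT2 did not pass with the regional median removed (0.101) or with each array centred on its median (0.0970), nor with no filter (0.0577), with trend and robust (0.0587), in the ordinary equal-variance test (0.135) or with the replicate number as a block (0.104). The kinases PAK2 and ROCK1 fell, with differences of -0.37 (adjusted p = 0.00965) and -0.30 (adjusted p = 0.0305). Leaving out any overexpression array ended the call of TGFB1I1 (adjusted p = 0.0610 to 0.0906), and with control array 2 also that of ROCK1 (0.0719 to 0.133). Overexpression array 1 decided PAK2 (0.0550 without it), and any array but control array 3 decided GIT2 (0.117 to 0.163). Leaving out control array 3 gave 5 that rose and 6 that fell.

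Of 22 tested linkers between integrins and actin 1 rose and 2 fell, 13.6% against 10.9% of all genes, with a median of 0.02. ENAH, an actin polymerisation factor, fell by 0.52 (adjusted p = 0.0176) and PARVA, the ILK partner parvin, fell by 0.37 (adjusted p = 0.0132). FERMT2, the integrin activator kindlin-2, rose by 0.22 (adjusted p = 0.0425), and that call was lost with each of the 3 other scalings (adjusted p = 0.0732 with centring, 0.0625 with cyclic loess and 0.232 with the regional median removed). Leaving out any overexpression array or control array 1 ended the call of ENAH (adjusted p = 0.0622 to 0.0821), overexpression array 1 or 3 that of PARVA (0.0561 and 0.0608), and any array but control array 3 that of FERMT2 (0.0654 to 0.163). Leaving out control array 3 gave 2 that rose and 3 that fell.

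Of 15 tested ligands of these integrins other than fibronectin, 2 rose and 2 fell, 26.7% against 10.9% of all genes, with a median of 0.02. FBN1, the RGD-bearing fibrillin, stood at 8.64, 8.70 and 8.76 in the overexpression group, against 9.71, 10.15 and 9.27 in the control group, 2.02-fold lower (adjusted p = 0.0120). TNC, tenascin-C, a ligand of ITGA9, differed by -0.70 (adjusted p = 0.00795). The adhesion molecule L1CAM rose by 0.74 (adjusted p = 0.000522) and the matricellular protein CCN2 by 0.61 (adjusted p = 0.0245). VCAM1, the endothelial ligand of ITGA4 named above, did not pass the filter. L1CAM passed in all 16 alternatives. Leaving out overexpression array 1 or 2 ended the call of FBN1 (adjusted p = 0.0619 and 0.0632), and leaving out either of these or control array 1 or 2 that of CCN2 (0.0645 to 0.113). Leaving out control array 3 gave 3 that rose and 3 that fell.

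Of 13 tested fibronectin co-receptors and turnover genes, 2 rose and 2 fell, 30.8% against 10.9% of all genes, with a median of 0.04. The gelatinase MMP2 differed by -0.88 (adjusted p = 0.00158) and LTBP1, which is laid down on fibronectin fibrils, by -0.74 (adjusted p = 0.00691). PLAU, the urokinase plasminogen activator, rose by 0.56 (adjusted p = 0.0122) and SDC3, a heparan sulphate proteoglycan of the syndecan family, by 0.42 (adjusted p = 0.00843). SDC4, the syndecan of focal adhesions, was not past the threshold. Leaving out overexpression array 1 or 2 ended the call of PLAU (adjusted p = 0.0619 and 0.0682). Leaving out control array 3 gave 2 that rose and 3 that fell.

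**Figure D4:**
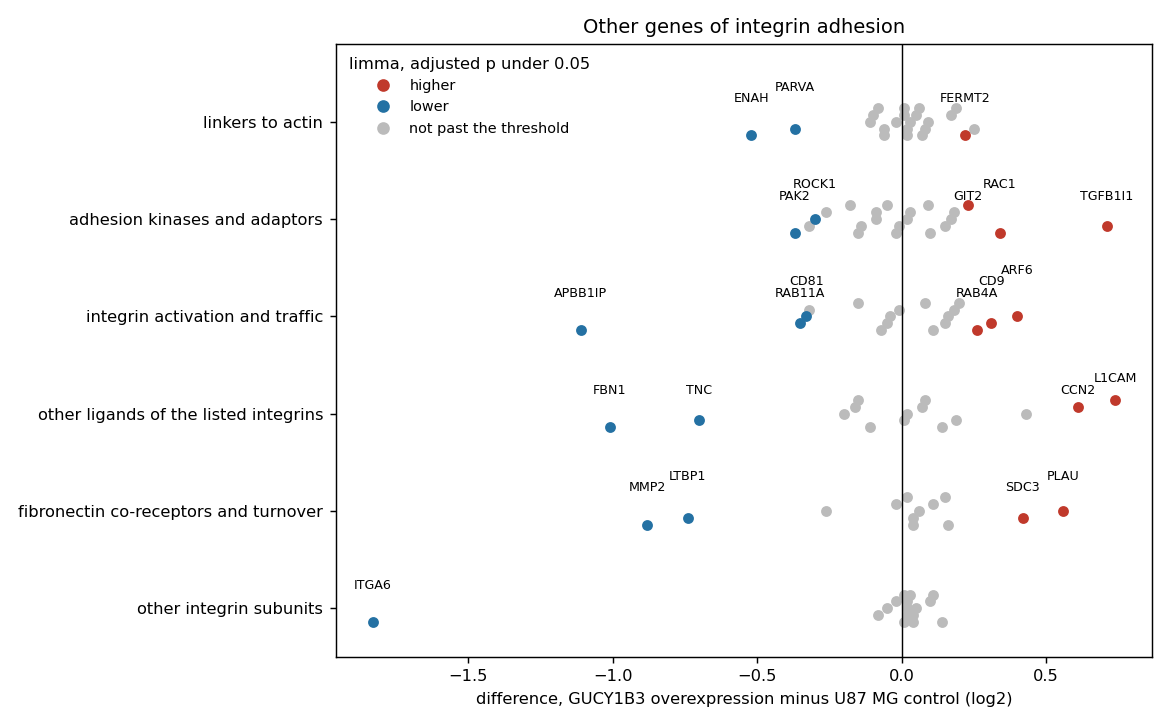
Difference on the log2 scale (horizontal axis, overexpression minus control) of the tested genes in 6 lists of integrin adhesion, with genes that were higher in red, lower in blue and not past the threshold in grey. Each list holds genes on both sides of 0, with ITGA6 and APBB1IP farthest to the left.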

How the data were processed

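The deposited table holds log2 expression of 70523 features on 6 arrays. The authors made the values by RMA in Affymetrix Expression Console, per the submitters' processing notes and the labels. RMA corrects background, quantile-normalizes arrays and summarises probe sets. Software versions and the array's build are not given in the sources used here. Scanner files and detection calls were not used here. Precision is limited by the number of arrays. Gene names came from the platform annotation, updated through RefSeq (GRCh38.p14). It gave 1 symbol for 23781 probe sets, several for 1543 and none for 45199. Y-linked genes were left out. Each gene took its probe set with the highest mean, and 15798 of 22349 genes passed the filter on dim probe sets.

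Groups were compared with limma 3.58.1 (lmFit and eBayes, R 4.3.3) without covariates. P-values were adjusted by Benjamini-Hochberg over all 15798 and called under 0.05. Residual and prior degrees of freedom were 4 and 4.37. The procedure was run on simulated independent normal values with differences added to some genes. It recovered 65 of 67 differences of 0.5, 67 of 67 of 1.0 and 66 of 66 of 2.0. Of its 214 calls, 16 were unchanged genes. The simulation held no array effect, so it cannot speak to an array that stands apart, such as control array 3. Plots used Python 3.11.15 and matplotlib 3.10.9. Differences are overexpression minus control. The members and 6 gene lists (130 entries) were chosen with earlier results of these data known. The text names the members and, from each list, up to 5 called genes with the largest difference or else the smallest p. For each called member it names the 2 genes with the highest correlation. The 16 alternatives covered scaling, filter, probe set choice, test, array weights, the replicate number as a block and leaving out each array.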

Additional observations from a re-analysis of the deposited data

How the results depend on the processing

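The rise of ITGA4 and the fall of ITGAV kept their direction and passed the threshold under all 16 alternatives. Array weights gave control array 3 the lowest weight of 0.296. They raised the members called to 2 higher and 2 lower, with ITGB8 at 0.63 (adjusted p = 0.0185) and ITGA5 at -0.29 (0.00746). Calls over all 15798 tested genes rose as well, from 1009 higher and 716 lower to 1842 higher and 1400 lower. The signs that turned were those of genes not called: ITGB1 with the mean of its probe sets (0.06), ITGB5 without overexpression array 3 (0.07) or control array 3 (0.05), its leave-one-out range being -0.06 to 0.07, and FN1 without control array 3 (0.00, in a range of 0.00 to 0.22).

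Counts over all genes depended more on the settings, with 246 higher and 170 lower in the ordinary equal-variance test, 1842 and 1400 with array weights, and 596 higher with the regional median removed. The labels do not say whether same-numbered arrays of both groups were pairs. Deviations from the group means correlated at 0.282, -0.097 and -0.241 for same-numbered arrays, and at -0.392 to 0.336 for the others. With 3 arrays per group these values cannot decide whether the numbers mark pairs. With the replicate number as a block 589 genes were higher and 439 lower, and 2 members were higher, ITGB8 passing (adjusted p = 0.0350). That block left 0 actin linkers higher and 1 lower, and 1 activation and traffic gene and 1 other ligand higher.

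In the ordinary test 0 actin linkers were higher or lower, 1 adhesion kinase or adaptor higher and 0 lower, 1 activation and traffic gene higher, 1 other ligand higher and 0 lower, and 0 co-receptor and turnover genes higher or lower. Among actin linkers 0 were higher with centring, cyclic loess, the regional median removed or eBayes with trend and robust, and 3 with array weights. With the regional median removed 1 adhesion kinase or adaptor and 1 activation and traffic gene were higher. With array weights 5 kinases and adaptors were higher and 5 lower, and 7 activation and traffic genes were higher.

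Leaving out each array in turn gave 1 to 2 members higher and 1 to 3 lower, and 307 to 2050 genes higher and 215 to 1575 lower. It gave 0 to 2 actin linkers higher and 0 to 3 lower, 1 to 5 kinases and adaptors higher and 0 to 6 lower, and 1 to 6 activation and traffic genes higher and 2 to 5 lower. It gave 1 to 3 other ligands higher and 1 to 3 lower, 1 to 2 co-receptor and turnover genes higher and 2 to 3 lower, and 0 other integrin subunits higher and 1 to 2 lower. The highest counts of members and of all genes came without control array 3. The cause was not tested.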
